A study of Oryctolagus cuniculus with 9 samples.

Results

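Rabbit parathyroid cells that had been pretreated with gallic acid and then put through hypoxia and reoxygenation (GA+H/R) were compared with untreated control cells by RNA sequencing. The members are the 3 GA+H/R and the 3 control libraries, 6 of the 9 libraries in the series, chosen by their labels. The comparison asks how far the transcriptome of treated, injured cells lies from that of uninjured cells, rather than from that of injured cells without the drug. The cells are wild-type primary parathyroid cells of Oryctolagus cuniculus, which the labels name by that cell type. Control libraries are labelled untreated and day 0. GA+H/R libraries had 1200 uM gallic acid for 24 h before 6 h of hypoxia and 6 h of reoxygenation, an in vitro stand-in for ischaemia and reperfusion. The 3 libraries of hypoxia and reoxygenation without gallic acid (H/R, also 6 h and 6 h) are used below for reference levels. No group had gallic acid alone, so in GA+H/R the drug, the injury and any difference in time in culture cannot be told apart. The labels do not say whether the other groups were also kept for 24 h before the injury, or whether replicates are separate cultures or animals, so p-values measure only the spread between these libraries.

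Parathyroid chief cells sense extracellular calcium through the calcium-sensing receptor and release parathyroid hormone when calcium falls. Fibroblasts and macrophages of the gland's stroma come along in primary preparations and differ from chief cells by their collagens and by their scavenger receptors. Hypoxia stabilises the HIF transcription factors, and reoxygenation brings a burst of reactive oxygen that the KEAP1 and NRF2 system answers with antioxidant and iron-storage genes. Gallic acid, a plant trihydroxybenzoic acid, scavenges radicals in solution and can itself generate peroxide in culture medium.

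Expression was given as FPKM, fragments per kilobase of transcript normalised to the mapped total, for 19511 loci. Of these, 10863 reached 1 FPKM in at least 3 of the 6 libraries and were tested, 1439 of them through the controls only and 62 through GA+H/R only. The sum of deposited FPKM was 1674790 ± 24633 in control and 498124 ± 26668 in GA+H/R (mean ± SD, n = 3 each), so the deposited columns are not on a common scale. Each library was therefore put on the scale of its median locus, with a divisor (its median ratio to the mean of the 6) of 1.52 to 1.69 in control and 0.363 to 0.366 in GA+H/R. All levels below are such scaled FPKM, listed in the order of replicates 1, 2 and 3, and all changes are log2 differences relative to the median locus ± SE. The spread between replicates was alike in both groups, where the median SD over mean of a locus was 11.2% in control and 11.1% in GA+H/R. Control 1 stood apart from the other controls, by at least 1 on the log2 scale at 344 loci, against 9 loci between controls 2 and 3. Values without control 1 stand beside the results it touches.

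The defining markers of the labelled cell type were at or near 0 in all 6 libraries. PTH, the hormone itself, was at 0.0843, 0.0829 and 0.0641 in control and 0.0214, 0 and 0.120 in GA+H/R, and CHGA, the granule protein chromogranin A, at 0.128, 0 and 0 in control and 0, 0 and 0 in GA+H/R. GATA3, TBX1, KL and RGS5 did not exceed 0.183 in any of the 6, and CASR, GCM2 and CYP27B1 were not analysed here. Of the 13 listed markers, 10 were in the table and 4 were tested, each of which other cell types express too. TRPC1, a cation channel subunit, fell from 129, 149 and 149 to 75.6, 71.1 and 82.1 (−0.89 ± 0.095, limma adjusted p = 2.20e-04). VDR, the vitamin D receptor, rose by 0.44 ± 0.15 (adjusted p = 0.0324) and PTH1R, the receptor for the hormone, by 0.70 ± 0.26 (adjusted p = 0.0471). Each call was lost when 1 of several libraries was left out, for example control 2, without which the changes were 0.35 and 0.54. Both were also not called at equal sums, at 0.20 and 0.34, and as deposited they were −0.85 and −1.39. Fibroblast markers were at the other end of the range, with a summed level of 76274 to 124099 in control and 38071 to 38529 in GA+H/R. Epithelial, thyroid, erythroid, neural and lymphocyte markers were all below the filter, with no member above 0.868. The labelled cell type was thus not visible at its defining markers in either group, while fibroblast markers were measured at high levels in both.

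Most of the transcriptome differed between the groups. By limma on log2(scaled FPKM + 1), with Benjamini-Hochberg adjustment over all 10863 loci, 3290 loci were higher in GA+H/R (30.3% of those tested) and 3780 lower (34.8%), 65.1% in all at an adjusted p under 0.05. A change of at least 1 on the log2 scale was called at 1748 loci upward (16.1%) and 1311 downward (12.1%). All 3 libraries of one group lay above all 3 of the other at 3579 loci with GA+H/R higher (32.9%) and 4165 with control higher (38.3%). These shares are the background for every count of a gene group below. The filter used deposited FPKM, so loci that passed it through 1 group alone had to differ on that scale. With the divisors above, 1 FPKM as deposited is a lower scaled level in control than in GA+H/R. Loci that passed through GA+H/R alone thus had to differ after scaling too, while those through the controls alone need not. In each of the 41 lists with at least 4 members tested, between 0 and 4 members passed through the controls alone and none through GA+H/R alone. The direction of a moderate change depends on the scale. On the deposited FPKM, 419 loci were higher (3.86%) and 9815 lower (90.4%), and the median change there was −1.79 against −0.10 after scaling. At 2299 loci the call was higher after scaling and lower as deposited. A change below is therefore a change relative to the median locus, and the deposited value of a named gene is given where its sign differs or its call is lost. With all libraries brought to the same sum of FPKM, 2319 loci were higher and 5237 lower, so that 30.7% of calls were upward against 46.5% after scaling to the median locus.

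**Figure D1:**
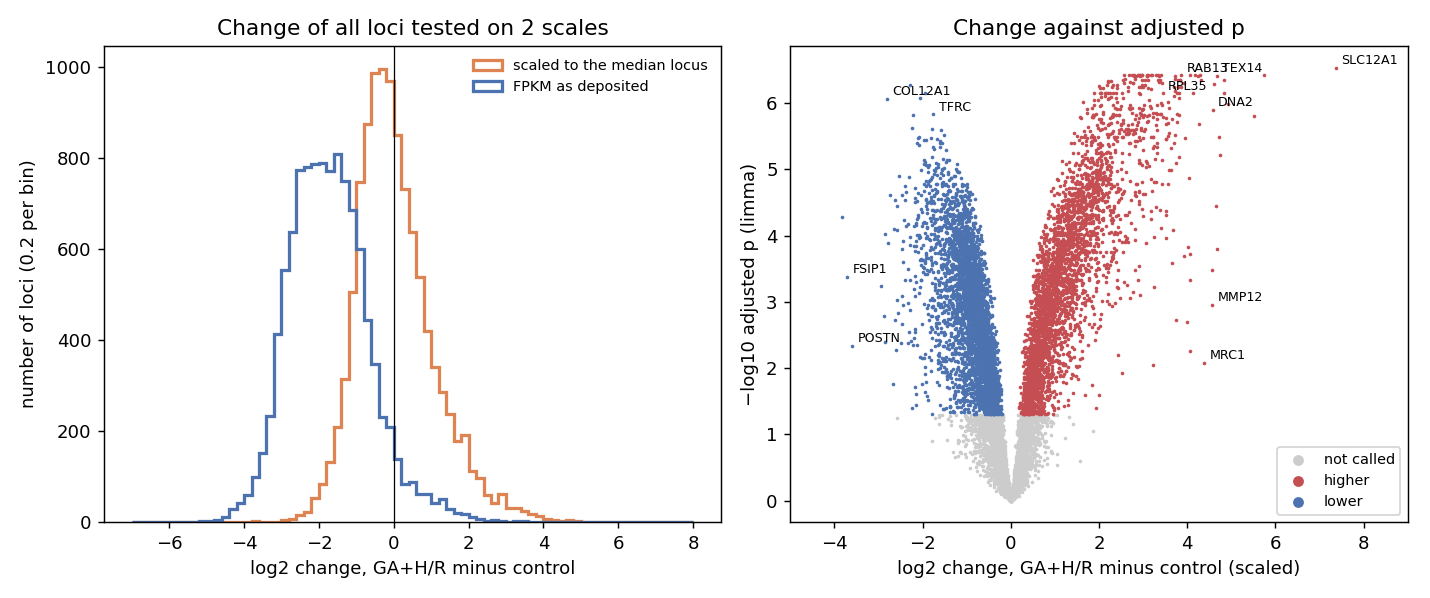
Left, histogram of the log2 change (GA+H/R minus control) of the 10863 loci tested, in bins of 0.2, on the median-locus scale and on the deposited scale. Right, each locus as a point with its change on the x axis and −log10 of the limma adjusted p on the y axis, coloured by call. The deposited distribution sits to the left of 0, with a median of −1.79, and the scaled one around it, with a median of −0.10.

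The 12 largest rises, all called and all above control as deposited too, fell into 2 kinds: genes of macrophages and a set of genes with no common cell type. SLC12A1, the kidney's bumetanide-sensitive sodium, potassium and chloride cotransporter, headed the second kind. It was at 0.0408, 0.0303 and 0 in the controls, at 54.3, 58.2 and 55.6 in H/R and at 164, 173 and 167 in GA+H/R. Virtually nothing was listed in the controls, so the fitted change of 7.37 ± 0.094 depends on the added 1 and is no measure of fold. Its controls were all under 1 FPKM, so it passed the filter through the GA+H/R libraries alone and had to differ, and its p against control is not given. Against H/R the rise was 1.56 ± 0.075 (adjusted p = 4.43e-06, limma over all 9 libraries). The fits share the 3 GA+H/R libraries. In the second, 1982 of 10996 loci were higher in GA+H/R than in H/R (18%) and 1670 lower (15.2%).

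TEX14, a protein of the intercellular bridges of germ cells, was at 3.35, 2.81 and 2.95 in control and 96.04, 107 and 103 in GA+H/R. DNA2, a helicase and nuclease of DNA replication and mitochondrial DNA repair, was at 0.907, 0.652 and 1.01 in control and 46.6, 36.4 and 47.4 in GA+H/R. USP50, a member of the ubiquitin-specific protease family, was at 0.953, 0.927 and 0.758 in control and 34.9, 30.8 and 29.9 in GA+H/R. RAB13, a small GTPase of vesicle transport to tight junctions, was at 20.6, 19.8 and 19.9 in control and 311, 317 and 291 in GA+H/R. Control values of these 4 genes lay close together, control 1 included, and no library of one group came near the other. Their changes were 4.67 ± 0.10 for TEX14, 4.58 ± 0.15 for DNA2, 4.13 ± 0.12 for USP50 and 3.86 ± 0.074 for RAB13, with adjusted p-values from 3.78e-07 to 1.25e-06. H/R libraries lay between the groups, with means of 48.5, 14.97, 11.2 and 159.7. All 4 were also higher in GA+H/R than in H/R, by 0.94 to 1.46. Controls of DNA2 and USP50 were near or under 1, so the size of their change against control also depends on the added 1. With 0.1 or 5 added instead, it was 5.52 or 3.04 at DNA2 and 5.03 or 2.65 at USP50. TEX14 overlaps 11 other annotated loci, none with a gene symbol, in the RefSeq annotation of assembly mOryCun1.1, and SLC12A1, DNA2, USP50 and RAB13 overlap none. Sources used here do not give whether counting used strand, so reads of TEX14 and of an overlapping gene cannot be told apart. The same holds for STAB1 with NT5DC2, for SLC26A7 with LRRC69, and for FSIP1, NALCN and COL1A2 with 1 unnamed locus each.

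**Figure D2:**
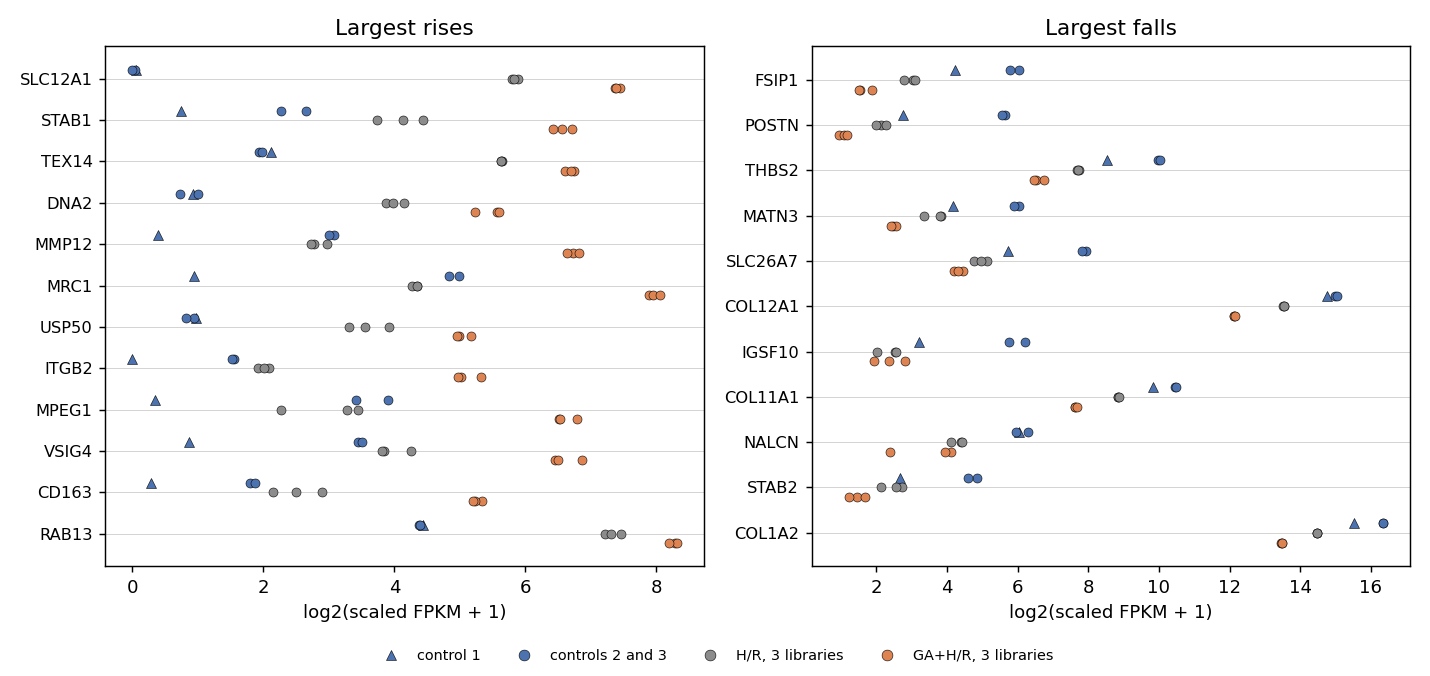
Level of the 12 loci with the largest rise (left) and 11 of the 12 with the largest fall (right) in each library, as log2(scaled FPKM + 1), with control 1 as a triangle. H/R libraries lie between control and GA+H/R at every rise shown except MMP12, MRC1 and MPEG1. Control 1 lies below controls 2 and 3 at every fall shown except NALCN.

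Macrophage genes made up the other kind. Of 15 listed markers, 11 were in the table under their own name (CD68 shares a joined locus, and C1QA, C1QB and ITGAM were not analysed here) and 6 were tested, and 5 of these rose and none fell, with a median of 3.97 (2.12 as deposited) against −0.10 for all loci tested. MRC1, the mannose receptor, was at 0.917, 27.4 and 30.7 in control and at 236, 246 and 264 in GA+H/R. CD163, the haemoglobin scavenger receptor, was at 0.216, 2.46 and 2.65 in control and 39.2, 36.3 and 35.8 in GA+H/R. VSIG4, a complement receptor of resident macrophages, was at 0.823, 9.90 and 10.4 in control and 86.3, 89.3 and 116 in GA+H/R, and MPEG1, the pore-forming perforin-2, at 0.264, 9.65 and 13.97 in control and 109.6, 89.9 and 91.3 in GA+H/R. Every GA+H/R library was above every control, as the rule for naming genes required, and control 1 was far below the other controls at all 4. With SEs that carry this spread, the changes were 4.38 ± 1.02, 3.94 ± 0.41, 4.0 ± 0.68 and 4.06 ± 0.87, with adjusted p = 0.00827, 2.05e-04, 0.00201 and 0.00559 in the same order. Without control 1 they were 3.06, 3.36, 3.12 and 2.94. As deposited, 3 of the 5 called markers were still called, MRC1 at 2.39 and MPEG1 at 2.18 being lost. CSF1R, the receptor for the macrophage growth factor and the remaining called marker, rose from 1.28, 2.04 and 2.21 to 21.7, 17.5 and 18.8 (2.85 ± 0.17, adjusted p = 1.66e-05).

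MSR1, a scavenger receptor for modified lipoproteins, was the exception, at 3.04, 0.795 and 0.573 in control and 2.73, 3.05 and 3.12 in GA+H/R, with control 1 inside the GA+H/R range (adjusted p = 0.0745, and 4.98e-04 without control 1). The 5 markers under the filter were low in all libraries, and at 4 of them every GA+H/R library was above all 6 others. FCER1G, a signalling chain of Fc receptors, was at 0.0191, 0.211 and 0.253 in control and 3.51, 2.55 and 2.70 in GA+H/R, and CD14, the endotoxin co-receptor, at 0.0905, 0.105 and 0.191 in control and 1.68, 1.70 and 1.60 in GA+H/R. TYROBP, C1QC and AIF1, the last of which overlapped H/R, did not exceed 1.42 in any GA+H/R library. In all, 10 of the 11 markers were above all controls in all 3 GA+H/R libraries. Their summed level was 6.67, 52.8 and 60.98 in controls 1, 2 and 3, 48.9 to 58.6 in H/R and 489.7 to 535 in GA+H/R. In this sum H/R stood near controls 2 and 3, and all GA+H/R libraries stood far above both groups. Single markers differed. Every H/R library was above every control at CD163 (3.41, 6.44 and 4.64), VSIG4 (18.1, 13.3 and 13.0) and CSF1R (6.56, 4.07 and 3.96). At MRC1 (19.4, 18.3 and 19.4), MPEG1 (8.65, 9.82 and 3.79) and MSR1 (1.58, 1.60 and 2.02) H/R lay within the control range. In bulk RNA, more cells of a type and more RNA per cell cannot be told apart, which holds for every cell type marker here.

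Other genes that macrophages express rose as well. STAB1, the scavenger receptor stabilin-1, was at 0.666, 3.81 and 5.25 in control and 93.3, 84.99 and 104 in GA+H/R (4.68 ± 0.46, adjusted p = 1.60e-04). MMP12, the macrophage metalloelastase, was at 0.315, 7.46 and 7.04 in control and 105, 112 and 98.2 in GA+H/R (4.56 ± 0.69, adjusted p = 0.00111). ITGB2, the β2 integrin chain shared by leukocytes, was at 0, 1.94 and 1.87 in control and 31.2, 38.8 and 30.3 in GA+H/R (4.07 ± 0.42, adjusted p = 1.87e-04). Again GA+H/R and control did not overlap, by the same rule. Control 1 was again the lowest, and without it the changes were 4.08, 3.66 and 3.48. H/R was above every control at STAB1 (20.7, 16.4 and 12.2) and ITGB2 (2.79, 3.22 and 3.03), but not at MMP12 (5.83, 5.60 and 6.83). Against H/R, MRC1 was higher by 3.63 ± 0.87 (adjusted p = 0.0127), MMP12 by 3.87 ± 0.57 (adjusted p = 0.00123) and CD163 by 2.71 ± 0.36 (adjusted p = 7.56e-04). The monocyte-attracting chemokines CCL2 and CCL7 followed. CCL2 was at 0.314, 0.655 and 0.606 in control, 0.496, 0.675 and 0.610 in H/R and 7.11, 10.98 and 6.95 in GA+H/R (2.60 ± 0.20, adjusted p = 4.95e-05). CCL7 was at 0.249, 1.39 and 1.88 in control, 1.13, 1.03 and 0.386 in H/R and 7.08, 12.4 and 12.8 in GA+H/R (2.48 ± 0.36, adjusted p = 8.81e-04, and 0.90 as deposited, not called). STAB2, the stabilin of sinusoidal endothelium, went the opposite way, from 5.38, 28.1 and 23.3 to 1.73, 2.17 and 1.33 (−2.60 ± 0.55). It passed the filter through the controls alone, so that it had to differ as deposited. Of the endothelial markers, PECAM1, which leukocytes carry as well, went from 0.121, 0.303 and 0.335 to 3.61, 3.89 and 2.86 (1.83 ± 0.14). It passed the filter through the GA+H/R libraries alone and had to differ, while VWF, KDR, TEK, CLDN5 and ESAM did not exceed 0.268. PTPRC, the pan-leukocyte antigen CD45, was under the filter, with no value above 0.336. The part of the macrophage markers in the rises of MMP12, ITGB2, CCL2 and CCL7 was not tested.

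**Figure D3:**
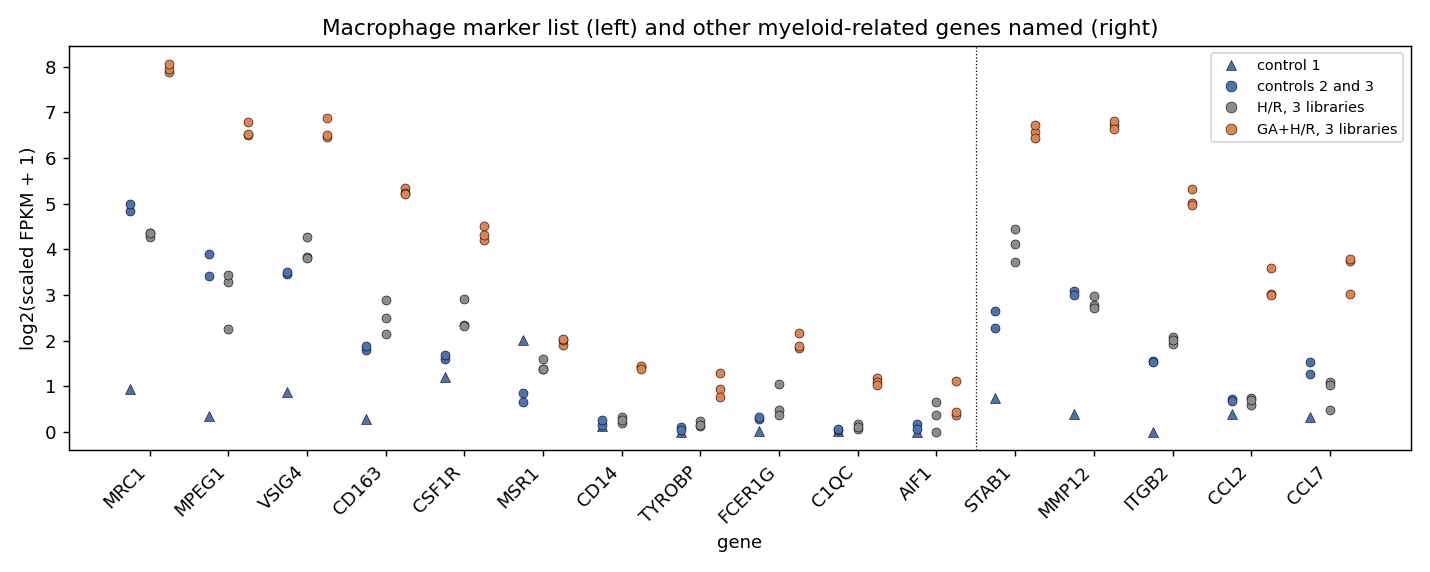
Level of the 11 macrophage markers in the table and of 5 further genes in each of the 9 libraries, as log2(scaled FPKM + 1), with control 1 as a triangle. GA+H/R libraries are the highest at every gene except MSR1, where control 1 reaches the same range, and AIF1, where H/R does.

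Many of the largest falls were in extracellular matrix genes. Collagens and the enzymes that modify them were lower almost throughout: of 29 tested, 26 fell and none rose, with a median of −1.74 (−3.77 as deposited), against the background of 34.8% of loci lower. The 3 not called were COL6A1 at −0.80, COL15A1 at −0.39 and LOXL4 at 0.34. COL12A1, a fibril-associated collagen, was at 27881, 32211 and 33964 in control and 4453, 4459 and 4529 in GA+H/R (−2.80 ± 0.082, adjusted p = 8.69e-07). COL1A2, a chain of the type I collagen of scar and bone, was at 46765, 83639.7 and 83219.9 in control and 11282, 11502 and 11484 in GA+H/R (−2.59 ± 0.22, adjusted p = 8.23e-05), and COL11A1, a nucleator of thin fibrils, at 906, 1416 and 1430.2 in control and 197, 195 and 203 in GA+H/R (−2.62 ± 0.18, adjusted p = 2.92e-05). The GA+H/R libraries were nearly identical and far below every control. COL5A3, a minor fibrillar chain, fell by 2.45 ± 0.23, COL1A1 by 2.36 ± 0.15 and COL3A1 by 2.10 ± 0.13 on the log2 scale. Control 1 had the lowest level of each of these 6 collagens, and without it the falls were larger, for example −2.85 at COL1A2. The summed level of the list was 132970, 198740 and 200129 in controls 1, 2 and 3, 68666 to 69088 in H/R and 33798 to 34072 in GA+H/R. Collagen levels in H/R thus lay between those of the other groups, and in GA+H/R minus H/R 22 members were lower and 1, LOXL4, higher. Between the same groups the summed fibroblast markers, which share COL1A1, COL1A2 and COL3A1 with this list, fell and the macrophage markers rose, and their part in the fall of the matrix genes was not tested.

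Glycoproteins and proteoglycans of the matrix followed, with 20 of 26 tested lower, 3 higher and a median of −1.66 (−3.59 as deposited, with 0 higher and 25 lower there). POSTN, periostin, a matricellular protein of wound fibroblasts, was at 5.81, 49.1 and 46.3 in control and 0.919, 1.10 and 1.23 in GA+H/R (−3.60 ± 0.74). As it was under 1 FPKM as deposited in every GA+H/R library, it passed the filter through the controls alone and had to differ on that scale. THBS2, the angiogenesis inhibitor thrombospondin-2, was at 372, 1007 and 1050.2 in control and 89.9, 86.8 and 106 in GA+H/R (−2.95 ± 0.39, adjusted p = 5.80e-04). MATN3, a matrilin of growth plate cartilage, was at 17.01, 64.6 and 58.3 in control and 4.52, 4.88 and 4.35 in GA+H/R (−2.89 ± 0.47, adjusted p = 0.00162). Control 1 lay between the other controls and GA+H/R at all 3, and without it their changes were −4.42, −3.42 and −3.43. ASPN, asporin, an inhibitor of TGF-β, fell by 2.43 ± 0.19 on the log2 scale. Of those tested, 4 had passed the filter through the controls alone. The 3 members that rose were TGFBI, BGN and EFEMP1, the last 2 named after their values were seen. TGFBI, an integrin-binding matrix protein that is induced by TGF-β and made by macrophages too, was at 670.4, 349.8 and 371 in control, 1009.7, 967 and 989 in H/R and 2259, 2208 and 2280.2 in GA+H/R (2.34 ± 0.24, adjusted p = 1.78e-04, and 0.22 as deposited, not called). BGN, the proteoglycan biglycan, rose by 0.31 (−1.78 as deposited, −0.058 at equal sums), a call lost without control 2 (0.26), and EFEMP1, a fibulin, rose by 0.60 (−1.01 as deposited, and 0.30 at equal sums, not called).

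The remaining large falls were in genes of mixed function. FSIP1, a sperm flagellum protein also found in some tumours, had the largest, from 17.7, 64.2 and 53.6 in control to 2.65, 1.87 and 1.86 in GA+H/R (−3.70 ± 0.45), and it too passed the filter through the controls alone. SLC26A7, an anion transporter of stomach, kidney and thyroid, went from 51.8, 246 and 225 to 17.3, 20.8 and 19.04 (−2.84 ± 0.56, adjusted p = 0.00398). FSIP1 and SLC26A7 again had control 1 between the groups. NALCN, the sodium leak channel, fell from 64.6, 61.2 and 77.4 to 16.2, 4.19 and 14.5 (−2.62 ± 0.44, adjusted p = 0.00187) and IGSF10, a large immunoglobulin-domain protein, from 8.21, 52.9 and 72.7 to 2.84, 4.18 and 6.01 (−2.68 ± 0.75, adjusted p = 0.0176). The call at IGSF10 was lost without control 2 (−2.31) and without GA+H/R 1 (−2.48). NALCN had a low second GA+H/R library and close controls. All 12 of the largest falls were also lower in the H/R mean than in the control mean, and 6 of them were lower in GA+H/R than in H/R by the 9-library fit. All 12 largest rises were higher than in H/R by that fit, against 18% of all loci higher and 15.2% lower. The comparisons with H/R reuse libraries by which these genes were chosen, so the choice favours such differences.

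Proteases that cut the matrix split by family member. Of 24 proteases and inhibitors tested, 16 were lower and 4 higher (median −0.90, −2.65 as deposited, with 1 higher and 20 lower there). MMP2, the gelatinase that fibroblasts secrete, went from 119, 201 and 201 to 44.2, 43.7 and 42.7 (−1.93 ± 0.20, adjusted p = 2.15e-04), and ADAMTS9, a proteoglycan-cleaving enzyme, from 184, 302 and 353 to 75.9, 65.4 and 68.6 (−1.93 ± 0.23, adjusted p = 3.80e-04). Besides MMP12, the collagenase MMP1, the gelatinase MMP9 and the stromelysin MMP3 rose. MMP1 was at 1.11, 11.7 and 7.17 in control, 56.7, 58.9 and 56.6 in H/R and 26.4, 19.6 and 23.4 in GA+H/R (1.99 ± 0.61, adjusted p = 0.0254, and 0.11 as deposited, not called). MMP9 was at 2.26, 5.99 and 4.50 in control, 35.8, 42.6 and 39.9 in H/R and 17.3, 15.2 and 10.3 in GA+H/R (1.58 ± 0.31, adjusted p = 0.00393, and −0.26 as deposited). All GA+H/R values of both lay above control and below H/R. The difference from H/R was −1.42 ± 0.27 at MMP9 (adjusted p = 0.00413) and missed the threshold at MMP1 (adjusted p = 0.0886). The call of MMP1 against control was lost without any single GA+H/R library, with changes of 1.93 to 2.13. MMP3 rose by 1.40 ± 0.36 (adjusted p = 0.0126, and −0.18 as deposited). MMP13, the other interstitial collagenase, had the reverse order, with 3015, 4090.1 and 4095 in control, 579.9, 585 and 562 in H/R and 1359, 1328 and 1404 in GA+H/R. It was lower than control by 1.44 ± 0.13 (adjusted p = 9.15e-05) and higher than H/R by 1.24 ± 0.11 (adjusted p = 7.47e-05). MMP3, MMP9 and MMP13 were named after their values were seen.

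Receptors that hold cells to the matrix or to each other went with it. Of 20 listed integrins, cadherins and related receptors tested, 17 fell and none rose, with a median of −1.11 (−3.16 as deposited). The leukocyte integrin chain ITGB2, which rose by 4.07 on the log2 scale, was not in this list. ITGB1, the β1 chain common to most collagen and fibronectin receptors, was at 2601, 3750.0 and 3847 in control and 1011, 1009.6 and 1112 in GA+H/R (−1.68 ± 0.15, adjusted p = 1.13e-04). ITGA11, a collagen-binding chain of fibroblasts, was at 16.8, 54.4 and 61.3 in control and 8.31, 7.50 and 9.90 in GA+H/R (−2.05 ± 0.46, adjusted p = 0.00688). The mesenchymal cadherins CDH11 and CDH2 changed by −1.85 and −1.66. The 3 not called, CDH13, CD44 and DDR2, were at −0.026, −0.043 and −0.037. The rule for naming genes required that groups not overlap at the 4 genes, and control 1 was again the lowest control. Among fibroblast markers, 8 of 10 fell and 2 rose (median −1.37, −3.47 as deposited, with 0 higher and 10 lower there). The pair that rose was VIM, the intermediate filament vimentin, from 7921, 9309.7 and 9847 to 20663, 20046 and 20513 (1.18 ± 0.088, −0.94 as deposited), and THY1, a fibroblast surface antigen, by 0.60 ± 0.17 (−0.92 as deposited), which was not called at equal sums (0.32), after quantile normalization (0.40) or without GA+H/R 3 (0.57). The contractile gene TAGLN, a smooth muscle and myofibroblast marker, rose from 1044, 1650.3 and 1690.4 to 3171, 3098 and 3170.2 (1.14 ± 0.18, −0.98 as deposited), and the pericyte receptor NOTCH3 fell by 1.01 ± 0.13 on the log2 scale.

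Targets of TGF-β and of the mechanosensitive factors YAP and TAZ were mostly lower, 19 of 28 tested against 4 higher (median −0.67, −2.73 as deposited, with 0 higher and 26 lower there). CYR61, a classical YAP target, was at 3361, 4438 and 4146 in control, 2958, 3034 and 2952 in H/R and 965, 988 and 944 in GA+H/R (−2.03 ± 0.11, adjusted p = 1.04e-05). CTGF, its close relative, was at 5559.6, 8135 and 8059.6 in control, 3668, 3726 and 3619 in H/R and 1803, 1729 and 1795 in GA+H/R (−2.01 ± 0.15, adjusted p = 4.44e-05). The GA+H/R level of both was below H/R as well, by 1.63 ± 0.089 at CYR61 (adjusted p = 7.57e-06) and 1.05 ± 0.13 at CTGF (adjusted p = 4.61e-04). LTBP1, which tethers latent TGF-β to the matrix, went from 221, 344 and 372 to 66.9, 53.5 and 65.04 (−2.29 ± 0.21, adjusted p = 1.04e-04). The 4 that rose were TGFBI, TAGLN, ANKRD1 and TEAD4. Of 28 growth and angiogenic factors and their receptors, 13 fell and 3 rose (PDGFA, IGFBP6 and IGFBP7), with a median of −0.65 (−2.47 as deposited, with 0 higher and 27 lower there). IGF1R, the signalling receptor, went from 54.1, 68.4 and 74.6 to 15.8, 17.6 and 16.3 (−1.91 ± 0.13), IGF2R, the clearance receptor, from 47.3, 66.1 and 74.4 to 15.6, 15.4 and 14.4 (−1.95 ± 0.17), and the binding protein IGFBP5 from 367, 1049 and 1275 to 189, 177 and 174 (−2.13 ± 0.43). IGFBP6 rose from 7.74, 4.66 and 4.05 to 17.7, 17.9 and 18.97 (1.61 ± 0.21, −0.30 as deposited).

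Genes of protein synthesis rose together relative to the median locus. All 59 cytosolic ribosomal protein genes tested were called higher, with changes from 1.55 to 3.45 and a median of 2.24 (0.17 as deposited, where 30 were called higher and 8 lower), against 30.3% of all loci. RPL35, of the large subunit, was at 9.04, 10.6 and 9.06 in control and 111, 119 and 113 in GA+H/R (3.45 ± 0.098, adjusted p = 7.11e-07). RPLP1, of the stalk that recruits elongation factors, was at 124, 147 and 134 in control and 1346, 1387 and 1401 in GA+H/R (3.34 ± 0.078, adjusted p = 4.52e-07). RPL13 changed by 3.17 ± 0.057 and RPS23, of the small subunit, by 3.09 ± 0.063. The groups were far apart at each, control 1 included. RPL38 was under the filter, and all 60 genes in the table were above all controls in every GA+H/R library. Ribosomal protein genes have many near-identical processed copies in mammalian genomes, and sources used here do not give how reads were shared among them. The summed level of the list was 19352 to 20480.2 in control, 56348 to 56564 in H/R and 99157 to 99984 in GA+H/R, and 58 members were higher in GA+H/R than in H/R.

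Ribosomes of the mitochondrion and the factors that work on ribosomes moved the same way on this scale. Of 41 mitochondrial ribosomal proteins, 35 rose and 2 fell (MRPL33 and MRPS10), with a median of 0.99 (−0.62 as deposited, with 2 higher and 28 lower there). MRPS7 was at 11.1, 11.2 and 10.99 in control and 73.4, 71.3 and 60.3 in GA+H/R (2.51 ± 0.10), and MRPL9 at 17.96, 15.3 and 15.7 in control and 96.6, 99.03 and 93.9 in GA+H/R (2.50 ± 0.094). Of 26 initiation and elongation factors, 22 rose and 1 fell, EIF4G3 (median 1.22, −0.85 as deposited, with 1 higher and 23 lower there). EEF1B2, which recharges the elongation factor with GTP, was at 20.5, 24.95 and 24.4 in control and 125, 121 and 121 in GA+H/R (2.35 ± 0.098), and its partner EEF1G changed by 2.05 ± 0.058 (−0.068 as deposited). Among 16 aminoacyl tRNA synthetases, 6 rose and 2 fell (EPRS and LARS), and 10 rose without control 1 (median 0.36, −1.64 as deposited, with 4 higher and 3 lower at equal sums and 0 and 16 as deposited). The largest rise was KARS, the lysyl synthetase, at 1.67 ± 0.079 (−0.44 as deposited).

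Short transcripts of unrelated function moved with these groups. Of 23 short housekeeping transcripts, listed for their length and not for their function, all rose (median 1.45, −0.42 as deposited, with 4 higher and 15 lower there). Of 24 long ones, 23 fell and none rose (median −0.98, −2.93 as deposited), with MDN1 not called. ROMO1, a small mitochondrial membrane protein, was at 6.80, 6.11 and 7.50 in control and 49.4, 47.5 and 48.1 in GA+H/R (2.66 ± 0.10), and TPT1, the translationally controlled tumour protein, at 95.98, 114 and 112 in control and 599.7, 589 and 601 in GA+H/R (2.46 ± 0.084). At the long end LRP1, a giant endocytic receptor, went from 317, 405 and 446 to 104, 101 and 99.96 (−1.91 ± 0.13), and VPS13C, a lipid transfer protein, from 301, 309.9 and 324 to 94.03, 82.8 and 88.7 (−1.81 ± 0.076). MACF1, a spectraplakin that links actin and microtubules, changed by −1.73 ± 0.16. No lengths were measured here. From general knowledge, the ribosomal, respiratory chain and proteasome genes are mostly short transcripts, and the collagens, matrix glycoproteins and chromatin enzymes mostly long ones. The median rise of ribosomal protein genes lay above that of the short housekeeping list, and the median fall of the collagens below that of the long one. The part of transcript length in these group results was not tested.

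**Figure D4:**
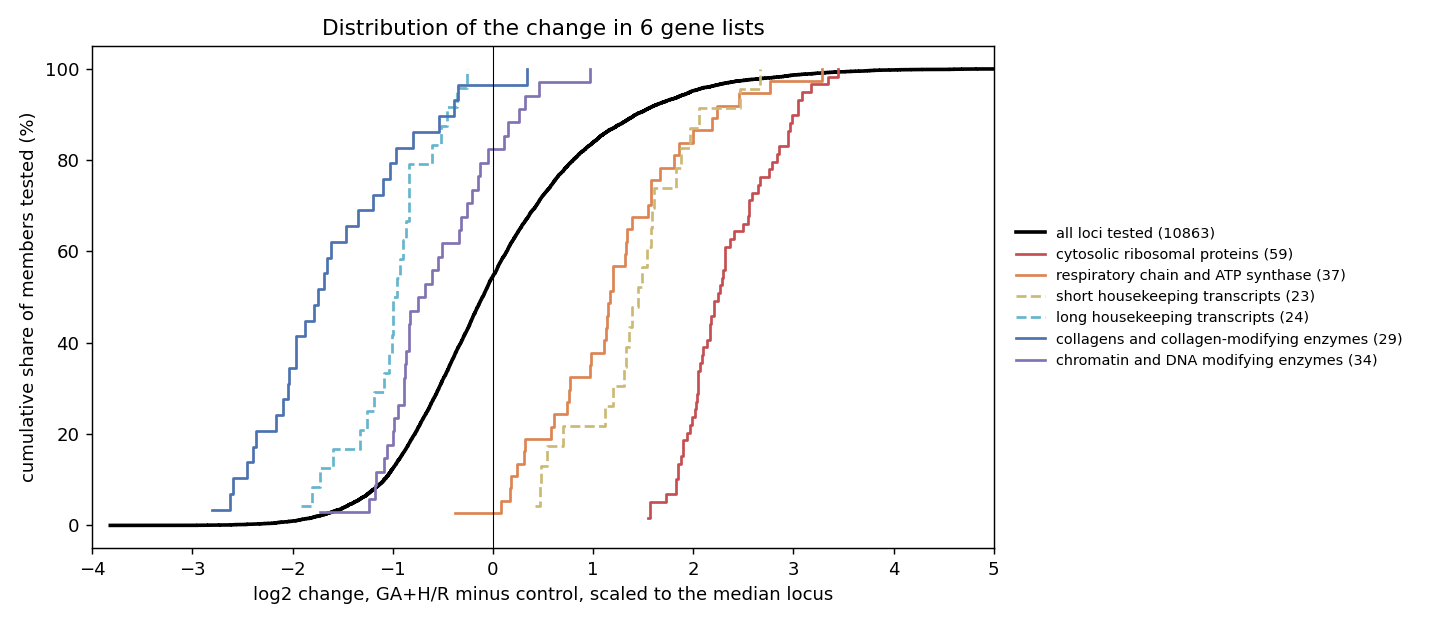
Cumulative share (%) of the members tested against their log2 change (GA+H/R minus control, median-locus scale) in 6 gene lists and in all loci tested, with the number tested in brackets. Short housekeeping transcripts lie to the right of all loci, with a median of 1.45, and long ones to the left, with a median of −0.98. Both ribosomal and short lists have lower medians as deposited, 0.17 and −0.42.

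Subunits of the respiratory chain were higher relative to the median locus. Of 37 subunits of the respiratory chain and ATP synthase tested, 31 rose and 1 fell, NDUFS1 of complex I, with a median of 1.17 (−0.74 as deposited, with 4 higher and 30 lower there). ATP5E, of the ATP synthase rotor, was at 21.1, 28.4 and 27.3 in control and 248, 258 and 264 in GA+H/R (3.29 ± 0.12, adjusted p = 2.13e-06). COX4I1, of cytochrome c oxidase, was at 62.5, 66.4 and 66.8 in control and 471, 447 and 435 in GA+H/R (2.77 ± 0.069, adjusted p = 4.95e-07), and UQCRQ of complex III changed by 2.45 ± 0.096. Listed glycolytic genes were mostly not called. Of 18 genes, 5 rose, 2 fell and 11 were not called (median 0.22, −0.13 at equal sums and −1.76 as deposited, with 5 higher and 5 lower at equal sums and 0 and 17 as deposited). Without control 1, 5 of the list fell. In the wider KEGG term for glycolysis and gluconeogenesis, 30 of 59 loci tested rose (50.8%, against 30.3% of all loci). A further 10 fell and 19 were not called. The median there was 0.40 (0.052 at equal sums and −1.33 as deposited). Calls were 22 higher and 14 lower at equal sums, and 0 and 53 as deposited. GAPDH was at 1589.7, 2854 and 3187 in control and 12212, 12094 and 11693 in GA+H/R (2.30 ± 0.25, adjusted p = 2.27e-04, and 0.18 as deposited, not called), with the reservation that it too has many processed copies. TPI1 rose from 788, 1051 and 1150.2 to 3156, 3155 and 3101 (1.67 ± 0.14, −0.45 as deposited). SLC16A1, the lactate transporter MCT1, fell from 12.2, 14.7 and 14.6 to 4.79, 5.95 and 5.47 (−1.21 ± 0.13). Of 29 proteasome subunits, 23 rose and 1 fell, PSMD1 (median 0.90, −1.10 as deposited, with 0 higher and 28 lower there). PSMB5, the subunit that carries the chymotrypsin-like site, went from 29.1, 27.2 and 26.1 to 113, 115 and 116 (2.03 ± 0.079, −0.051 as deposited) and PSMC3, of the regulatory base, from 81.8, 82.6 and 79.3 to 244, 224 and 271 (1.59 ± 0.087, −0.52 as deposited).

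Genes of the hypoxia pathway were called lower about as often as loci at large. Of 27 HIF pathway genes and targets tested, 11 fell (40.7%, against 34.8% of all loci), 5 rose (VHL, EGLN2, BNIP3, ANKRD37 and DDIT4) and 11 were not called, with a median of −0.31 (−2.41 as deposited, with 2 higher and 16 lower at equal sums and 0 and 27 as deposited). HIF1A, the oxygen-labile subunit itself, was at 1456, 1259.9 and 1188 in control, 781, 762 and 806 in H/R and 820.4, 818 and 812 in GA+H/R (−0.67 ± 0.085, adjusted p = 5.06e-04). VEGFA, the angiogenic factor, was at 33.7, 30.8 and 31.4 in control, 19.6, 21.9 and 20.8 in H/R and 9.71, 10.1 and 10.5 in GA+H/R (−1.57 ± 0.094, adjusted p = 1.68e-05). HIF1A in GA+H/R was close to H/R (difference 0.061 ± 0.071, adjusted p = 0.537), while VEGFA was lower than in H/R as well (by 0.96 ± 0.083, adjusted p = 7.37e-05). The 4 largest falls among targets follow. P4HA1 and P4HA2, the collagen prolyl hydroxylases, changed by −1.87 ± 0.30 and −1.68 ± 0.11, LOX, which cross-links collagen, by −1.79 ± 0.099, and ERO1A, the oxidase that drives disulphide formation, by −1.91 ± 0.23. LOX, P4HA1 and P4HA2 also stand in the collagen list, so that list and this one are not independent.

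In the redox response, both ferritin chains were higher relative to the median locus, while NRF2's own transcript was not called. Of 24 NRF2 pathway members and targets tested, 12 rose and 4 fell (NQO1, GCLC, SLC7A11 and ABCC1), with a median of 0.55 (−1.28 as deposited, with 10 higher and 6 lower at equal sums and 1 and 21 as deposited). NFE2L2, which encodes NRF2, was at 22.3, 19.8 and 18.4 in control and 16.8, 17.8 and 16.5 in GA+H/R (−0.23 ± 0.11, adjusted p = 0.103). KEAP1, the adaptor that sends NRF2 to degradation, was at 73.3, 60.6 and 55.3 in control and 107, 89.04 and 85.9 in GA+H/R (0.57 ± 0.14, adjusted p = 0.00882, −1.51 as deposited, and 0.21 at equal sums, not called). HMOX1, the haem oxygenase that answers oxidative stress, was at 15.5, 39.7 and 49.6 in control, 85.9, 77.9 and 88.6 in H/R and 57.4, 60.1 and 63.4 in GA+H/R. All GA+H/R values were above all controls, and control 1 was the lowest library (0.92 ± 0.39, adjusted p = 0.0757, and 0.0164 without control 1). NQO1, a quinone reductase and the textbook NRF2 target, was lower, at 779, 688 and 684 in control and 574, 570.4 and 562 in GA+H/R (−0.33 ± 0.071, adjusted p = 0.00561, and −0.22 after quantile normalization, not called). TXNIP, the thioredoxin inhibitor, was at 2206, 1222 and 1306 in control and 1331, 1322 and 1326 in GA+H/R, with controls 2 and 3 below the GA+H/R range and control 1 above it (adjusted p = 0.442). FTL, the ferritin light chain, was at 928, 975 and 950.1 in control and 7242, 7196 and 7246 in GA+H/R (2.93 ± 0.053, adjusted p = 3.78e-07), and FTH1, the heavy chain, at 7231, 8628 and 8412 in control and 29778, 29413 and 29948 in GA+H/R (1.88 ± 0.078, −0.24 as deposited). Ferritin genes have processed copies too, so their reads may be split. GSTP1, a glutathione transferase, rose by 2.14 ± 0.083 and MAFF, a small partner of NRF2, by 2.32 ± 0.24, with 0.086 and 0.57 as deposited and neither called there.

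Antioxidant enzymes outside that list were mostly higher too, 15 of 23 higher and 3 lower (SOD3, PRDX4 and MSRB3), with a median of 0.63 (−1.04 as deposited, with 0 higher and 19 lower there). GPX1, the cytosolic glutathione peroxidase, was at 108, 81.1 and 75.03 in control and 384, 399 and 395 in GA+H/R (2.16 ± 0.14, adjusted p = 2.30e-05, and 0.053 as deposited, not called), and TXN2, the mitochondrial thioredoxin, at 21.2, 19.9 and 21.8 in control and 81.3, 93.4 and 93.9 in GA+H/R (2.04 ± 0.095, −0.025 as deposited). TFRC, the transferrin receptor, fell from 9036, 9664 and 8804 to 2691, 2663 and 2769 (−1.76 ± 0.060, adjusted p = 1.48e-06), and CP, the ferroxidase ceruloplasmin, from 123, 339 and 282 to 69.1, 71.6 and 66.2 (−1.71 ± 0.35, adjusted p = 0.0047). Of 17 genes of iron handling and ferroptosis, 6 were higher and 7 lower (median −0.093, −2.11 as deposited, with 1 higher and 16 lower there).

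Chaperone counts depended on the scale. Of 32 heat shock proteins and chaperones, 24 rose and 1 fell, BAG3 (median 0.60, −1.45 as deposited, with 14 higher and 7 lower at equal sums and 0 and 29 as deposited). HSPB8, a small heat shock protein of chaperone-assisted autophagy, was at 86.9, 14.2 and 15.6 in control and 152, 163 and 167 in GA+H/R (2.52 ± 0.64, adjusted p = 0.0117), and CRYAB, αB-crystallin, at 14.6, 5.77 and 5.05 in control and 36.5, 43.02 and 45.1 in GA+H/R (2.30 ± 0.35, adjusted p = 0.00117). Control 1 was the highest control at both, and without it the changes were 3.34 and 2.70. As deposited they were 0.44 and 0.30, neither called. HSP90AB1, the constitutive HSP90, rose by 1.85 ± 0.090 and its cochaperone FKBP4 by 1.59 ± 0.11, with −0.27 and −0.33 as deposited. The unfolded protein response was divided, with 7 of 23 genes higher and 9 lower (median −0.35, −2.44 as deposited, with 5 higher and 12 lower at equal sums and 1 and 19 as deposited). ATF4, the transcription factor of the integrated stress response, was at 55.8, 38.8 and 31.1 in control, 161, 171 and 168 in H/R and 277, 273 and 251 in GA+H/R (2.68 ± 0.20, adjusted p = 4.43e-05). Its target DDIT3, the factor CHOP, rose from 3.998, 2.23 and 1.83 to 8.65, 8.73 and 8.91 (1.45 ± 0.21, −0.27 as deposited). The members that fell included parts of the endoplasmic reticulum, with SEL1L, of the degradation complex, from 81.5, 79.9 and 83.7 to 17.3, 17.9 and 20.3 (−2.09 ± 0.093) and PDIA3, a disulphide isomerase for glycoproteins, from 422, 790.1 and 816 to 217, 213 and 211 (−1.60 ± 0.25).

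Death and division genes gave no single direction. Of 31 p53 targets and apoptosis genes, 13 rose and 12 fell (median 0.088, −0.27 at equal sums and −1.65 as deposited, with 8 higher and 13 lower at equal sums and 0 and 30 as deposited). BAD, a pro-apoptotic BH3 protein, went from 4.52, 4.66 and 5.52 to 30.4, 19.5 and 26.7 (2.15 ± 0.18, adjusted p = 7.20e-05, and 0.22 as deposited, not called), and FAS, the death receptor, from 389, 299 and 248 to 81.6, 74.5 and 72.1 (−2.0 ± 0.16, adjusted p = 6.52e-05). Of 28 cell cycle and replication genes, 15 rose and 5 fell (CCND2, CCNE2, CDK6, PLK1 and RB1), with a median of 0.69 (−1.05 as deposited, with 1 higher and 23 lower there). CCNB1, the mitotic cyclin, was at 0.930, 0.380 and 1.59 in control, 3.83, 4.28 and 5.07 in H/R and 8.77, 7.77 and 6.50 in GA+H/R (2.18 ± 0.24, adjusted p = 2.68e-04). RRM2, the S-phase subunit of ribonucleotide reductase, was at 2.13, 2.60 and 2.58 in control, 24.6, 21.7 and 34.2 in H/R and 9.28, 17.4 and 12.3 in GA+H/R (1.99 ± 0.22, adjusted p = 2.53e-04, and 0.21 as deposited, not called), and MCM4, of the replicative helicase, rose by 1.74 ± 0.19 (−0.0021 as deposited). RRM2 was thus above control and below H/R (by 1.0 ± 0.22, adjusted p = 0.00928).

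Chemokine genes went in both directions. Of 25 NF-κB pathway, cytokine and chemokine genes, 10 rose and 11 fell (median −0.24, −2.22 as deposited, with 1 higher and 21 lower there). Beside CCL2 and CCL7, the neutrophil attractant CXCL8 rose, from 9.77, 25.6 and 18.8 in control to 59.6, 59.9 and 59.4 in GA+H/R, with H/R at 30.6, 34.4 and 29.3 (1.77 ± 0.31, adjusted p = 0.00215, and −0.28 as deposited). CXCL12, the stromal chemokine that holds progenitors and lymphocytes, fell from 18.1, 66.2 and 67.1 to 8.92, 5.42 and 6.74 (−2.49 ± 0.50, adjusted p = 0.00412). Its H/R level of 7.52, 7.88 and 10.1 was as low. Interferon response genes were mostly not called, 9 of 16, with 4 higher and 3 lower (median −0.13, −1.77 as deposited, with 2 higher and 8 lower at equal sums and 0 and 15 as deposited). The transcription factors IRF7 and IRF3 rose by 1.10 ± 0.21 and 1.17 ± 0.18 (−0.34 and −0.69 as deposited), and B2M, the light chain of MHC class I, changed by −0.64 ± 0.12. Among 24 immediate early and MAPK feedback genes, 3 rose (FOSL1, ATF3 and DUSP4) and 10 fell, and 5 rose without control 1 (median −0.29, −2.02 as deposited, with 1 higher and 15 lower at equal sums and 0 and 23 as deposited). EGR1, a serum-induced zinc finger factor, was at 19.8, 18.8 and 13.2 in control, 13.3, 15.2 and 14.7 in H/R and 6.40, 7.72 and 5.98 in GA+H/R (−1.23 ± 0.18, adjusted p = 9.36e-04), and FOSL2, an AP-1 subunit, changed by −1.37 ± 0.13. ATF3, a stress-induced factor, was at 18.2, 7.22 and 7.14 in control, 35.9, 43.04 and 35.2 in H/R and 23.7, 24.6 and 19.4 in GA+H/R (1.11 ± 0.34, adjusted p = 0.0241, and −0.85 as deposited). Its call was lost at equal sums (0.76), without control 2 (0.90), control 3 (0.89), GA+H/R 1 (1.08) or GA+H/R 2 (1.06).

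Listed splicing and chromatin factors were mostly lower, but the wider KEGG term for the spliceosome was not. In that term 73 of 167 loci tested rose (43.7%) and 50 fell (29.9%). Its median was 0.21 (−0.15 at equal sums and −1.60 as deposited). Calls there were 45 higher and 63 lower at equal sums, and 0 and 149 as deposited. Of 48 splicing factors listed, 31 fell and 13 rose (median −0.71, −2.69 as deposited, with 0 higher and 45 lower there). CCNL1, a cyclin of nuclear speckles, went from 806, 493 and 406 to 91.7, 91.3 and 111 (−2.47 ± 0.24, adjusted p = 1.62e-04), and SRSF11, an SR-related protein, from 1368, 968 and 880.5 to 208, 199 and 193 (−2.39 ± 0.16, adjusted p = 2.90e-05). SNRPD2 and SNRPD3, of the Sm core of the spliceosome, had the largest rises in the list. SNRPD2 was at 16.5, 20.4 and 21.1 in control and 95.8, 104 and 87.6 in GA+H/R (2.26 ± 0.12) and SNRPD3 changed by 2.08 ± 0.099, with 0.19 and 0.033 as deposited and neither called there. Of 34 chromatin and DNA modifying enzymes, 22 fell and 2 rose (EZH1 and HDAC3; 4 without control 1), with a median of −0.71 (−2.47 as deposited). TET2, which oxidises methylcytosine, changed by −1.72 ± 0.15, DNMT3A, which sets it, by −1.24 ± 0.13, and EP300, a histone acetyltransferase, by −1.18 ± 0.10.

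Lysosomal, actin and signalling genes moved in both directions. In the lysosome, 12 of 44 genes rose and 14 fell, 22 without control 1 (median −0.20, −2.12 as deposited, with 10 higher and 26 lower at equal sums and 0 and 43 as deposited). LAMP2, a lysosomal membrane glycoprotein, went from 728, 929 and 862 to 293, 298 and 282 (−1.52 ± 0.098), whereas ATP6V1F, of the proton pump, rose by 1.99 ± 0.15 and TFEB, the master regulator of the organelle, by 1.42 ± 0.19 (−0.065 and −0.57 as deposited). Of 29 autophagy genes, 16 were higher and 2 lower on the median-locus scale (median 0.35, −1.68 as deposited, with 7 higher and 6 lower at equal sums and 0 and 29 as deposited). MAP1LC3B, the autophagosome marker LC3B, rose by 1.31 ± 0.12 and PHB2, a mitophagy receptor, by 1.69 ± 0.092 (−0.72 and −0.40 as deposited). In PI3K, AKT and mTOR signalling, 5 of 25 rose (AKT2, MLST8, RHEB, RPS6KA1 and EIF4EBP1) and 12 fell (median −0.22, −2.27 as deposited, with 2 higher and 16 lower at equal sums and 0 and 24 as deposited), with EIF4EBP1, the translation repressor under mTOR, rising by 1.73 ± 0.094 (−0.37 as deposited) and FOXO1 changing by −1.40 ± 0.16. In the MAPK cascade, 7 of 27 rose and 12 fell (median −0.12, −2.12 as deposited, with 2 higher and 14 lower at equal sums and 0 and 26 as deposited), and EGFR, the epidermal growth factor receptor, changed by −1.51 ± 0.15. Actin genes were divided, 13 of 33 higher and 10 lower, 19 lower without control 1 (median −0.059, −2.12 as deposited, with 11 higher and 14 lower at equal sums and 1 and 31 as deposited). TMSB10, an actin-sequestering peptide, went from 5.89, 11.8 and 11.1 to 102, 99.2 and 96.7, the H/R level of 100.3, 99.1 and 97.9 being in the same range (3.30 ± 0.23 against control, adjusted p = 3.71e-05). Of 25 genes of cholesterol and fatty acid synthesis, 8 rose and 3 fell (SC5D, SCAP and ACACA), with 14 not called and 7 lower without control 1 (median 0.22, −1.55 as deposited, with 5 higher and 8 lower at equal sums and 0 and 25 as deposited).

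Genes of calcium handling were split evenly, 8 of 18 genes higher and 9 lower (median −0.48, −2.13 as deposited, with 5 higher and 10 lower at equal sums and 0 and 16 as deposited). All 3 calcium pumps in the list fell, ATP2B4 by 1.18 on the log2 scale. ATP2A2, the SERCA2 pump of the endoplasmic reticulum, went from 724, 839.6 and 831 in control to 263, 263 and 292 in GA+H/R (−1.54 ± 0.085, adjusted p = 1.24e-05), and ATP2B1, the plasma membrane pump, from 63.5, 58.5 and 56.2 to 25.1, 22.1 and 22.7 (−1.31 ± 0.095, adjusted p = 3.80e-05). The small calcium-binding protein S100A6 rose from 8.93, 7.90 and 7.52 to 34.2, 32.7 and 35.7 (1.95 ± 0.10, −0.040 as deposited). In the KEGG term for parathyroid hormone synthesis, secretion and action, assigned to loci in the deposited table, 17 of 85 loci tested rose and 46 fell (median −0.47, −2.45 as deposited, with 4 higher and 79 lower there). The KEGG term for interaction of the matrix with its receptors had 45 of 67 lower and 6 higher (median −1.06, −2.89 as deposited).

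**Figure D5:**
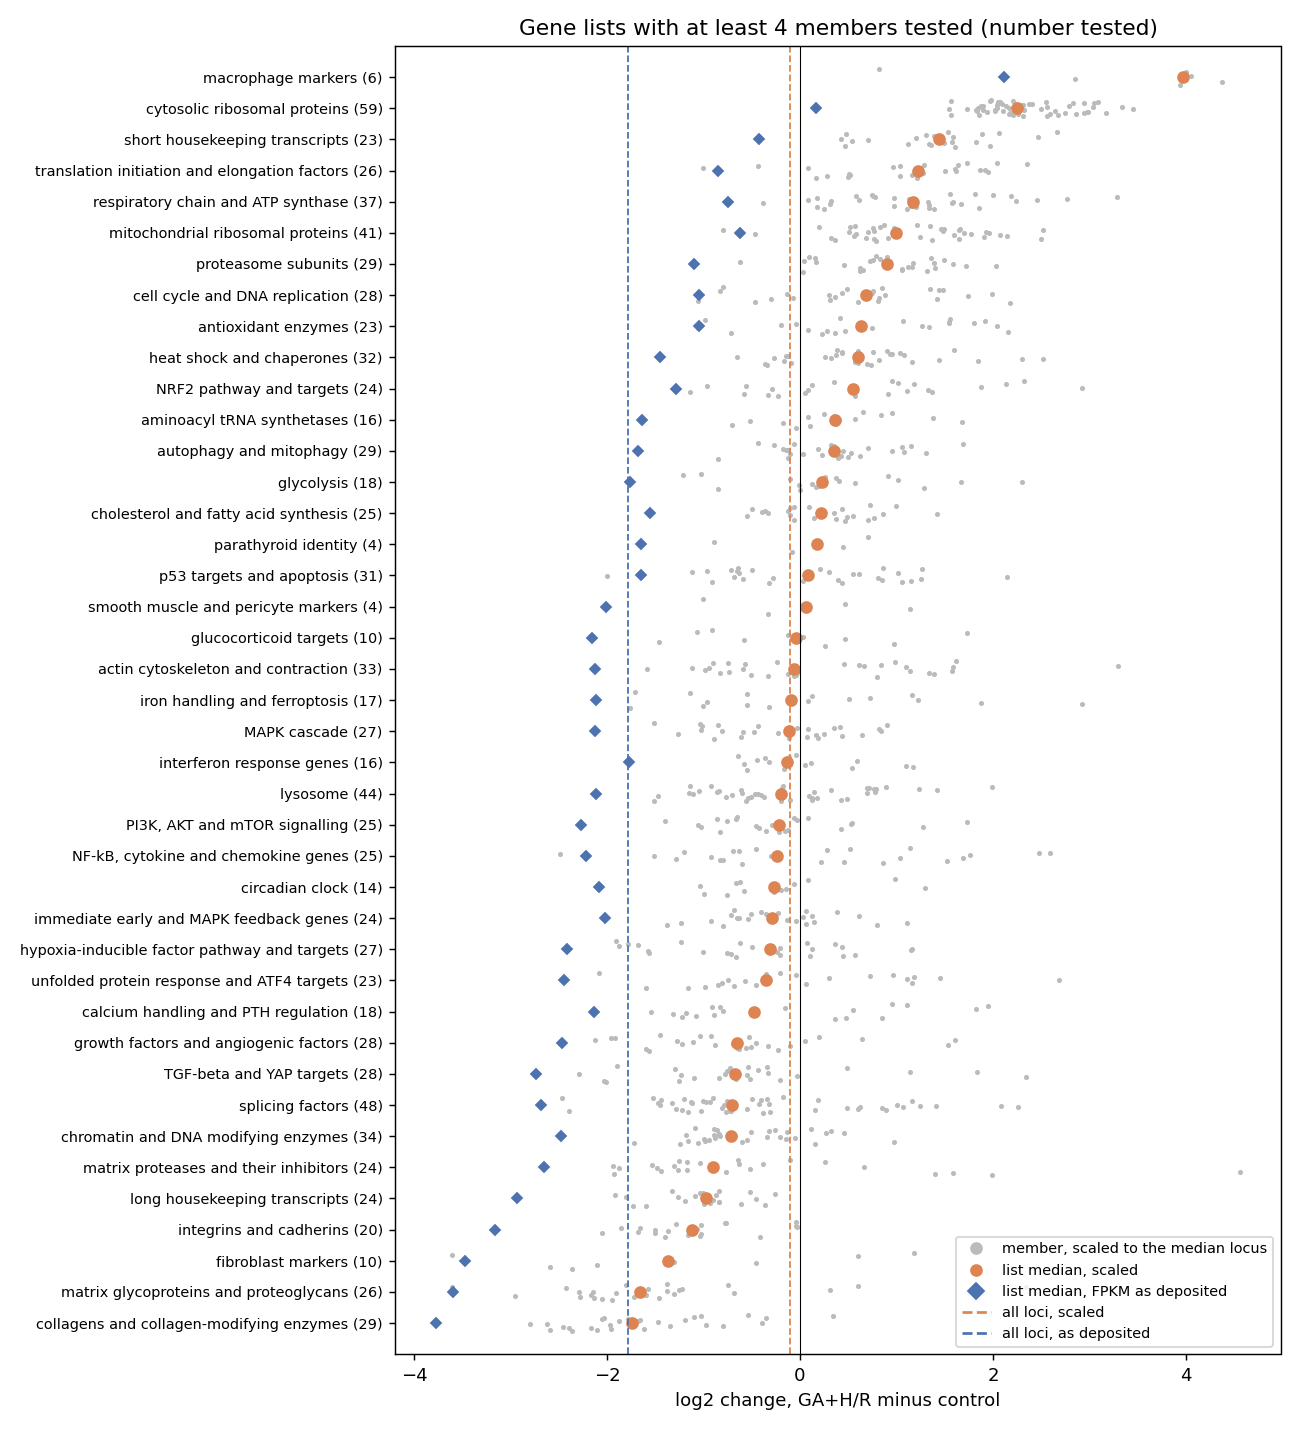
Log2 change (GA+H/R minus control) of every tested member of the 41 gene lists with at least 4 members tested, ordered by median. Grey points are members and orange points list medians on the median-locus scale, blue diamonds list medians on the deposited scale, and dashed lines the medians of all loci tested, −0.10 and −1.79. Macrophage markers and cytosolic ribosomal proteins have the highest medians on the scaled axis and are the only of these lists with a median above 0 as deposited, and collagens have the lowest on both scales.

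Few loci could be placed at the control level. The 95% confidence interval of the change lay within 0.5 of 0 at 1432 loci (13.2% of those tested) and within 0.25 of 0 at 58 (0.534%). STOM, SMPDL3A, SGK1 and SEPP1 were chosen because H/R and GA+H/R differed at them in these data. STOM, the membrane protein stomatin, was at 12.7, 33.5 and 38.1 in control, 7.62, 11.6 and 8.40 in H/R and 35.6, 26.5 and 33.2 in GA+H/R. SMPDL3A, a phosphodiesterase secreted by macrophages, was at 12.4, 22.4 and 18.6 in control, 5.97, 6.60 and 9.55 in H/R and 19.9, 16.2 and 22.4 in GA+H/R. For both, GA+H/R and control overlapped, with changes of 0.30 ± 0.39 (adjusted p = 0.522) and 0.15 ± 0.22 (adjusted p = 0.577). The 95% intervals reached from −0.63 to 1.22 and from −0.38 to 0.68, too wide to call either equal to control. Without control 1 the changes were −0.16 and −0.060. SGK1, a stress- and steroid-induced kinase, was at 11.9, 10.3 and 10.1 in control, 27.8, 39.2 and 35.8 in H/R and 13.1, 14.5 and 18.5 in GA+H/R, below H/R and above control in every library (0.47 ± 0.15, adjusted p = 0.0293, and −1.46 as deposited), a call lost at equal sums (0.12), after quantile normalization (0.28), without control 2 (0.43), control 3 (0.42), GA+H/R 2 (0.50) or GA+H/R 3 (0.34). SEPP1, the selenium carrier selenoprotein P, was at 26.9, 54.8 and 49.3 in control, 28.5, 21.4 and 26.9 in H/R and 167, 163 and 174 in GA+H/R, with every GA+H/R library above both other groups (1.98 ± 0.25, adjusted p = 4.85e-04, and −0.11 as deposited). Differences between GA+H/R and H/R at these 4 genes are what chose them and were not tested.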

How the data were processed

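The authors deposited 1 table of FPKM per locus for the 9 libraries. The submitters' processing notes name GRCm38 and mm10, both mouse builds, while the loci carry rabbit transcripts. Sources used here do not give the aligner, counter, annotation or handling of strand and shared reads. The table also holds the authors' p-values and q-values, per the file headers, which were not used here. FPKM gives no read totals, so depth is unknown and no counting interval was made. Libraries were scaled to the median locus, and log2(scaled FPKM + 1) was fitted by limma 3.58.1 in R 4.3.3 (eBayes with trend and robust) with Benjamini-Hochberg adjustment at 0.05. Loci needed 1 FPKM in 3 of the 6 libraries. GA+H/R minus H/R came from a fit of all 9. In data simulated for GA+H/R minus control over 10659 loci, 68.7% of 198 loci shifted by 1 on the log2 scale were recovered, and 3.55% of calls were false. Only those loci were shifted, drawn equally up and down, with normal noise independent between libraries. In the data 65.1% of loci were called and control 1 stood apart. The simulation therefore cannot give the rate of false calls in the data.

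Named genes were the 12 largest called changes each way (non-overlapping groups, 1 symbol, at least 10 scaled FPKM in the higher group). Up to 4 called members per list were named by size of change, again with non-overlapping groups. Non-overlap at genes chosen by size was therefore set in advance. Fixed genes of the cell type, HIF, NRF2 and H/R response were named as well. Uncalled members could be named to complete a list. Genes outside the rule were chosen after their values were seen: besides those said to be so in the text, these are members named to complete counts of 5 or fewer (among them VIM, THY1 and CSF1R) and ATP2B4. Members and lists were chosen with earlier results of these data known. Alternatives covered scaling, pseudocount, filter, fit settings, libraries and a replicate block. The labels do not say whether replicate numbers pair the libraries. Same-numbered deviations correlated at 0.027, −0.0016 and 0.026, which with 3 libraries per group cannot settle it. A description of changes against coding length was not made. A few loci are not reported here by name.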

Additional observations from a re-analysis of the deposited data

How the results depend on the processing

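The counts of loci called depended on the scale and little on the rest. On the deposited FPKM, 419 loci were higher and 9815 lower, against 3290 and 3780 relative to the median locus. Leaving out 1 library at a time gave 2926 to 3398 higher and 3219 to 3718 lower. With the replicate number as a block, 3163 were higher and 3622 lower, though the labels do not say what a shared number means. Narrowing the limit around the control level from 0.5 to 0.25 left 58 loci. Other pseudocounts, filters, fit settings, the upper quartile and the fit of all 9 libraries kept these counts within 1.5 times and reversed no named gene. The size of a change at genes low in control still moved with the pseudocount. With 0.1 or 5 added instead of 1, it was 5.50 or 2.62 at ITGB2 and 3.77 or 1.26 at CCL2. As deposited, the sign of the log2 change turned at MSR1 −0.50, CXCL8 −0.28, BGN −1.78, EFEMP1 −1.01, MMP9 −0.26, MMP3 −0.18 and VIM −0.94. On that scale it also turned at THY1 −0.92, IGFBP6 −0.30, TAGLN −0.98, EEF1G −0.068, KARS −0.44, PSMB5 −0.051 and PSMC3 −0.52. Further such genes were TPI1 −0.45, KEAP1 −1.51, HMOX1 −1.14, FTH1 −0.24, TXN2 −0.025, HSP90AB1 −0.27 and FKBP4 −0.33. The deposited values of others were DDIT3 −0.27, MCM4 −0.0021, ATF3 −0.85, IRF7 −0.34, IRF3 −0.69, ATP6V1F −0.065 and TFEB −0.57. The rest of these genes were MAP1LC3B −0.72, PHB2 −0.40, EIF4EBP1 −0.37, VDR −0.85, PTH1R −1.39, S100A6 −0.040 and STOM −1.72. Also turned were SMPDL3A −1.82, SEPP1 −0.11, SGK1 −1.46, NR1D1 −0.77, CIART −0.89, LEP −1.81 and TSC22D3 −1.13. To these add GLUL −0.35. At equal sums of FPKM the turned genes were BGN −0.058, STOM −0.057, SMPDL3A −0.20 and LEP −0.067. Without control 1 they were TXNIP 0.084, STOM −0.16 and SMPDL3A −0.060. Over all omissions of 1 library, TXNIP ranged from −0.36 to 0.084, STOM ranged from −0.16 to 0.57, SMPDL3A ranged from −0.060 to 0.32. Medians of lists turned as deposited at parathyroid identity −1.65, smooth muscle and pericyte markers −2.01, mitochondrial ribosomal proteins −0.62, translation initiation and elongation factors −0.85, aminoacyl tRNA synthetases −1.64 and respiratory chain and ATP synthase −0.74. Others were proteasome subunits −1.10, glycolysis −1.76, NRF2 pathway and targets −1.28, antioxidant enzymes −1.04, heat shock and chaperones −1.45 and p53 targets and apoptosis −1.65. Further medians were cell cycle and DNA replication −1.05, autophagy and mitophagy −1.68, cholesterol and fatty acid synthesis −1.55 and short housekeeping transcripts −0.42. At equal sums the list medians that turned were parathyroid identity −0.11, smooth muscle and pericyte markers −0.30, glycolysis −0.13, p53 targets and apoptosis −0.27 and cholesterol and fatty acid synthesis −0.091. Without control 1 they were smooth muscle and pericyte markers −0.26, p53 targets and apoptosis −0.0083 and glucocorticoid targets 0.091, the last also at 0.10 after quantile normalization. Apart from the arithmetic of scaling, the cause of these shifts was not tested. A description of changes against coding length was not run, since no transcript or protein lengths were at hand. FPKM tables carry no read totals, so what depth limits is unknown. Replicates are few, control 1 stands apart, and it is not known whether libraries are separate cultures.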

Other observations

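Clock genes, which set daily rhythms of transcription, were split. Of 14 tested, 6 fell and 2 rose, NR1D1 and CIART (median −0.27, −2.08 as deposited, with 0 higher and 14 lower there). ARNTL, the activator BMAL1, was at 48.1, 47.5 and 52.1 in control and 21.8, 28.9 and 22.5 in GA+H/R (−0.99 ± 0.13, limma adjusted p = 5.22e-04). NR1D1, the repressor REV-ERBα, which acts on ARNTL, was at 44.6, 21.8 and 20.3 in control and 68.2, 66.8 and 68.7 in GA+H/R (1.30 ± 0.28, adjusted p = 0.00591, and −0.77 as deposited). Its relative NR1D2 fell from 261, 195 and 186 to 115, 95.9 and 97.7 (−1.04 ± 0.15, adjusted p = 8.13e-04), and CIART, another clock repressor, rose by 0.98 ± 0.12 (−0.89 as deposited). The hour at which each group was harvested was not given in the labels.

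Glucocorticoid targets gave 3 higher and 4 lower of 10 tested (median −0.045, −2.15 as deposited, with 1 higher and 5 lower at equal sums and 0 and 9 as deposited). GLUL, glutamine synthetase, rose from 48.8, 26.98 and 23.7 to 102, 111 and 108 (1.73 ± 0.25, adjusted p = 9.50e-04, and −0.35 as deposited). TSC22D3, the leucine zipper GILZ, rose by 0.97 ± 0.35 (−1.13 as deposited), a call lost at equal sums (0.60) and without any 1 library other than control 1 (0.72 to 0.99), while ZBTB16, a zinc finger factor, changed by −1.46 ± 0.19. LEP, which encodes the adipocyte hormone leptin, was the one adipocyte marker above the filter, at 346, 202 and 176 in control, 298, 292 and 319 in H/R and 283, 286 and 285 in GA+H/R (0.30 ± 0.24, adjusted p = 0.295, and −1.81 as deposited). Its highest and lowest values were both controls, and ADIPOQ and FABP4, which define adipocytes better, were under the filter.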
